A study of Mus musculus with 43 samples.

Results

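Lung RNA of nintedanib-treated bleomycin mice was compared with lung RNA of control mice, gene by gene. The comparison used 27 of the 43 libraries of the series. Of these, 17 came from mice labelled as given bleomycin and nintedanib, and 10 from control mice labelled as given vehicle. The remaining 16 libraries, from bleomycin mice given nintedanib's vehicle, entered the shared fit and are named only where they show how the nintedanib lungs differed from untreated injury. The libraries were assigned to groups by these labels alone. The labels name tissue and treatment and give no strain, sex, age, dose, route or day of sampling, and which vehicle the controls received is not stated. An effect of the vehicle therefore cannot be told apart from bleomycin, and nintedanib itself differs between the compared groups together with bleomycin. Each library was taken as 1 mouse, and since no label says more, the p-values reflect only how these samples spread.

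Bleomycin, a DNA-breaking antibiotic, injures the alveolar epithelium of rodent lungs, and inflammation and scarring follow. Nintedanib is a small molecule that inhibits the receptor tyrosine kinases for VEGF, FGF and PDGF and is used to treat idiopathic pulmonary fibrosis. In a scarring lung, fibroblasts deposit collagen and other matrix, macrophages recruited from blood monocytes take up debris, and alveolar type 2 cells divide and pass through a transitional state on the way to type 1 cells. Capillary endothelium depends on VEGF, which alveolar epithelium supplies.

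Library totals ran from 13324549 to 18723538 counts in nintedanib lungs and from 13138281 to 17812995 in control lungs. Counts scaled to library size (CPM) are given as the lowest and highest library of a group with the median. Every library held the alveolar markers of lung: Sftpc, the type 2 cell surfactant protein C, had 15280 to 20750 CPM (median 17340) in control and 13710 to 32220 CPM (median 23140) in nintedanib lungs, and Ager, a type 1 cell receptor, had 2571 to 2901 CPM (median 2704) and 2337 to 3734 CPM (median 3244). On the first principal component (50.11% of the variance) control libraries lay between -56.334 and -30.398 and nintedanib libraries between -35.873 and 34.436, and only nintedanib replicate 7 entered the control range. Adipoq, an adipocyte hormone, was present at 1 CPM or more in 8 of 10 control libraries, in nintedanib replicates 1, 5, 7, 8 and 14 (5 of 17), and in 0 of 16 vehicle libraries. Libraries with this fat signal were thus unequal in number between the groups. Counts of calls are therefore also given without them, which leaves 12 nintedanib and 2 control libraries and fewer calls. The library names fall into number series whose meaning the labels do not give.

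Lungs given bleomycin and nintedanib had higher levels of most matrix, macrophage and stressed epithelial genes examined and lower levels of most pan-endothelial, capillary and B cell genes than control lungs. By edgeR's quasi-likelihood test, to which all adjusted p-values refer (Benjamini-Hochberg over all tested genes), 7888 of 14836 genes (53.2%) were called at an adjusted p under 0.05. Of all tested genes 28.1% were higher in nintedanib lungs (4171 genes) and 25.1% were lower (3717 genes), and 1100 calls were at least 2-fold, 698 higher and 402 lower. The majority turned with the scaling, to 3250 higher and 4844 lower with library totals, and to 3729 and 4482 when only the compared groups were fitted. For 639 genes (4.31%) every nintedanib library lay above every control library, and for 455 genes (3.07%) every one lay below. Without the Adipoq libraries 3297 of 15276 genes (21.6%) were called, 1800 higher and 1497 lower, and 3185 of these were also called in the same direction with all libraries. Counts of list members called without those libraries are to be read beside this 21.6%. Within the largest number series (13 nintedanib and 9 control libraries) 3998 genes were higher and 3510 lower. In whole-lung RNA, a gene that falls because its cells are fewer and a gene that falls because each cell holds less of its RNA cannot be told apart.

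Among called genes whose average log2 CPM reached 2, those with the largest rises belonged to matrix, stressed epithelium and macrophages. Grem1, which encodes a secreted antagonist of BMP signals (chromosome 2, 113746164 to 113758646, GRCm38), had 0 to 0.771 CPM (median 0.396) in control lungs and 5.14 to 49.4 CPM (median 13.3) in nintedanib lungs. No control library came near the lowest nintedanib library, and the log2 fold change, given here and below with its standard error, was 5.27 ± 0.60, adjusted p = 1.5e-09. Thbs4, the matrix glycoprotein thrombospondin 4 (chromosome 13, 92751590 to 92794818), had 0 to 0.818 CPM (median 0.147) in control and 1.52 to 41.6 CPM (median 9.96) in nintedanib lungs, again without overlap, with a log2 fold change of 5.52 ± 0.69, adjusted p = 1e-08. Spp1, osteopontin (chromosome 5, 104435118 to 104441050), is a secreted phosphoprotein of macrophages and injured epithelium. It had 36.9 to 119 CPM (median 71.4) in control lungs and 407 to 1967 CPM (median 1265) in nintedanib lungs, so that all 17 treated mice lay above all controls (4.01 ± 0.30, adjusted p = 2.1e-14). The same held for Slc26a4, the anion exchanger pendrin of airway epithelium (log2 fold change 4.79), for Sprr1a, a cornified envelope protein of stressed epithelium (4.65), and for the adhesion molecule Chl1 (4.65). It held too for the macrophage genes Mmp12, an elastase (4.43), Gpnmb (4.28) and Trem2, a lipid receptor (3.74), for Stra6l (3.67) and for tenascin C, Tnc (3.63). The acute-phase gene Saa3 (4.89) was above every control in 16 of 17 mice, and its reads could be shared with close relatives of the gene. The same 12 genes led the rises among genes that were also called higher without the Adipoq libraries.

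The largest falls were of another kind. Of the 12 genes in front by the same condition on level, Cidea, Pck1, Thrsp, Plin1, Car3, Adipoq, Fabp4 and Cyp2e1 are genes of fat or, for the last, of liver and fat metabolism, and they are described with the fat content below. The other 4 also fell without the Adipoq libraries. Bex2 had 32.4 to 50.8 CPM (median 37.1) in control lungs and 1.35 to 10.9 CPM (median 4.71) in nintedanib lungs, with no overlap (-3.04 ± 0.28, adjusted p = 7.8e-12). Ackr4, a scavenging receptor for chemokines of lymphocyte homing, fell by 2.05 on the log2 scale, and the immediate early transcription factors Nr4a1 and Egr1 had log2 fold changes of -2.02 and -1.97. Among genes called with and without the Adipoq libraries, the largest falls were those of these 4 genes and Thrsp, followed by Mlxipl (-1.91), a carbohydrate-sensing transcription factor, Adgre4 (-1.90), an adhesion receptor of myeloid cells, Igfbp3 (-1.90), a binding protein of insulin-like growth factors, and Sox11 (-1.85), a transcription factor. The muscle genes Tcap (-1.84) and Sln (-1.84) and granzyme A, Gzma (-1.83), completed that list. Sln lost its call without control replicate 3 or 6 and moved to -2.98 without nintedanib replicate 7. Mlxipl was at -1.22 without control replicate 1.

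**Figure D1:**
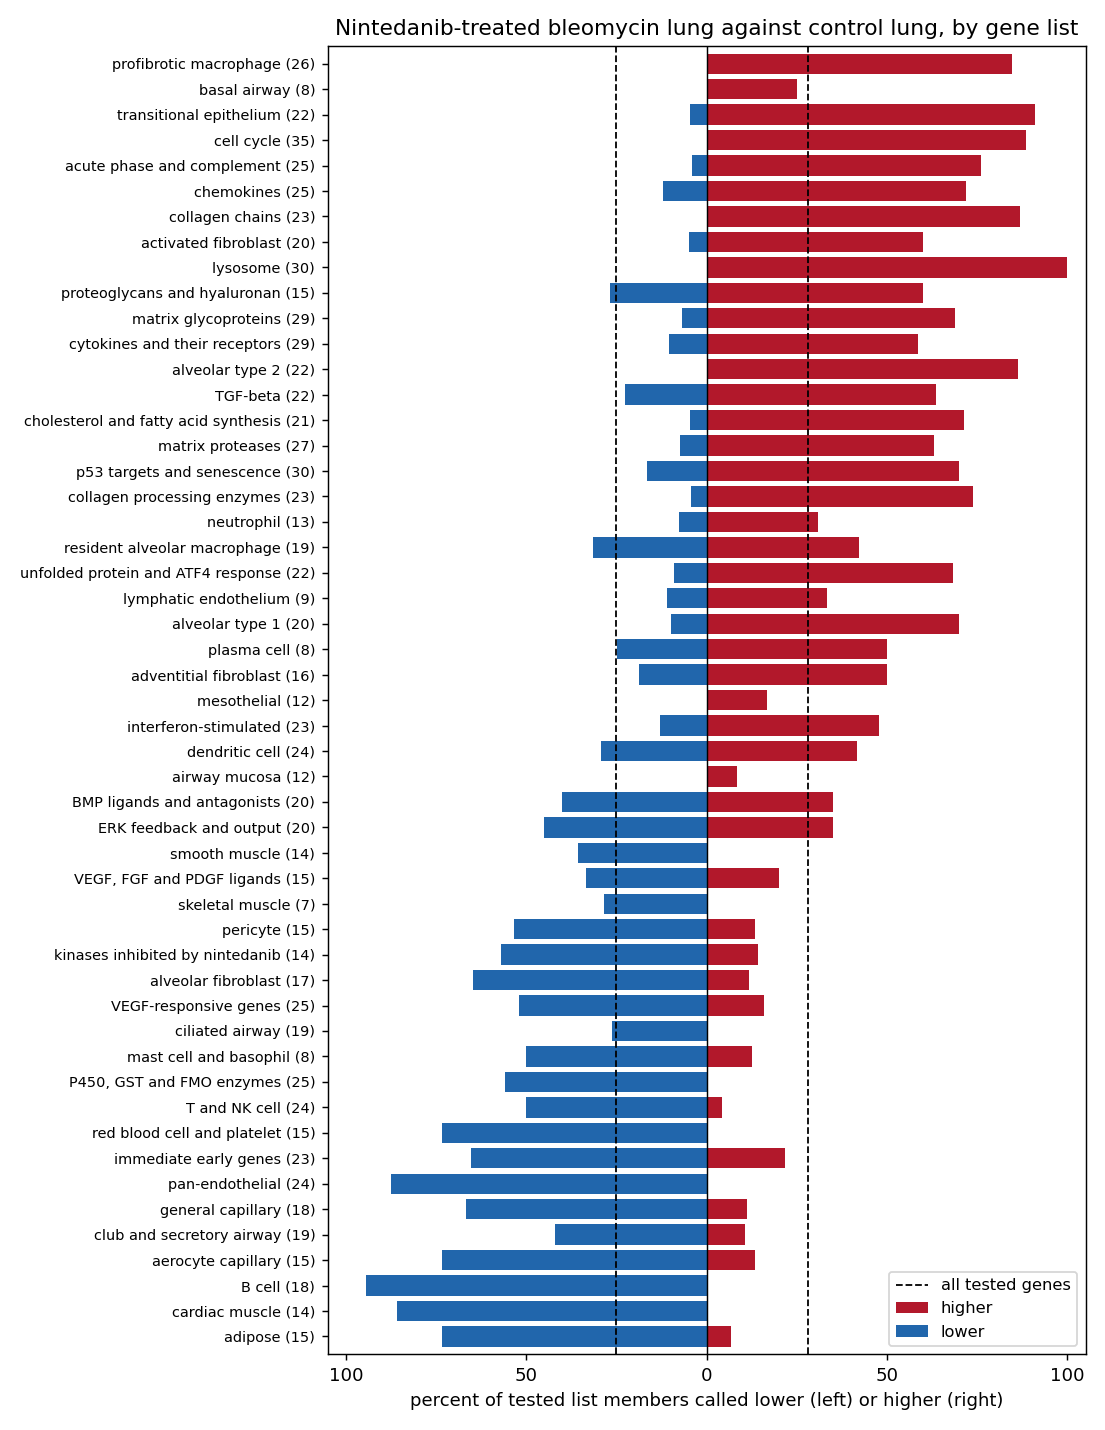
Percent of the tested members of each gene list called lower (left, blue) or higher (right, red) in nintedanib-treated bleomycin lung against control lung, with the number of tested members in brackets and lists ordered by median log2 fold change. Dashed lines mark the shares among all tested genes, 25.1% lower and 28.1% higher; all 30 lysosome genes lie on the right and 21 of 24 pan-endothelial genes on the left.

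Collagen genes rose as a body. Of 23 collagen chains 20 rose and none fell, with a median log2 fold change of 0.97, against a median of -0.005 over all tested genes. Col1a1, a chain of type I collagen (chromosome 11, 94936224 to 94953042), had 156 to 241 CPM (median 196) in control lungs and 305 to 1285 CPM (median 458) in nintedanib lungs, higher on the log2 scale by 1.45 ± 0.33, adjusted p = 0.00032. Col3a1, of type III collagen (chromosome 1, 45311538 to 45349706), had 242 to 342 CPM (median 297) and 504 to 1406 CPM (median 943) (1.72 ± 0.20, adjusted p = 1.8e-09). For both, every treated lung lay above every control lung, and the treated lungs spread over a wider range. The minor fibrillar chains Col11a1 (3.56) and Col24a1 (2.89), the cartilage collagen Col10a1 (3.10) and Col5a2 (1.80) had the largest changes. The calls of Col11a1 and Col10a1 were lost without the Adipoq libraries (adjusted p = 0.33 and 0.25) and with the fat and airway covariates, which gave 1.51 (adjusted p = 0.38) and 2.14 (adjusted p = 0.087). Col11a1 and Col10a1 reached at most 0.364 and 0.126 CPM in controls and 7.15 and 2.42 CPM in nintedanib lungs. With the Adipoq libraries left out, 8 collagen chains were called, with a median of 0.98, and Col1a1 had 1.62 (adjusted p = 0.13). Col27a1, Col8a1 and Col8a2 were not called. In the direct comparison of nintedanib with vehicle lungs, in which 7.31% of all tested genes were called, no collagen chain was called by edgeR or by DESeq2. At an unadjusted p under 0.05 edgeR had 3 chains lower and 0 higher, and DESeq2 3 lower and 1 higher. The list median of vehicle lungs against the same control libraries was 1.28. The adjusted p of that direct comparison was 0.23 for Col1a1 and 0.1 for Col15a1, which rose by 1.46 against control.

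Of 29 matrix glycoproteins 20 rose and 2 fell (median 0.72), and for 11 the groups did not overlap. Fn1, fibronectin (chromosome 1, 71585520 to 71653200), had 319 to 452 CPM (median 388) in control and 632 to 3733 CPM (median 1679) in nintedanib lungs (2.31 ± 0.29, adjusted p = 8.3e-09), and elastin, Eln, had 151 to 284 CPM (median 197) and 347 to 2419 CPM (median 925) (2.47 ± 0.38, adjusted p = 6e-07). In both, the lowest treated lung exceeded the highest control lung. The 2 that fell were Vtn, vitronectin (-0.89), and Mfap2, a microfibril protein (-0.37); here and below, members that go against the direction of their list were named after their values were seen. Of 15 proteoglycan and hyaluronan genes 9 rose and 4 fell (median 0.76). The rises were led by the hyaluronan-degrading Cemip (3.21) and the hyaluronan synthase Has2 (2.99), with versican, Vcan, at 1.40 and Has1 at 1.35, and the falls were those of Ogn (-0.72), Hyal1 (-0.53), Hyal2 (-0.34) and Prelp (-0.24). Has2 had a median of 0.168 CPM in control and 1.03 CPM in nintedanib lungs. Cemip and Has2 kept their size and lost their calls without the Adipoq libraries (2.84, adjusted p = 0.16, and 2.99, adjusted p = 0.21). Once the Adipoq libraries were removed, 10 matrix glycoproteins rose and 2 fell, and 2 proteoglycan genes rose and 2 fell. In that fit 21.6% of all genes were called in either direction.

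Enzymes that modify and cut matrix rose with their substrates. Of 23 collagen processing genes 17 rose and 1, Pcolce2, fell (-0.84), led by the prolyl hydroxylase P4ha3 (3.07), the crosslinking enzymes Lox (1.39) and Loxl2 (1.20) and the procollagen peptidase Adamts2 (1.29). Of 27 proteases and inhibitors 17 rose and 2 fell, Mmp28 (-0.65) and Adamts5 (-0.38). Adamts5 was at -0.36 and not called without control replicate 3. Timp1, an inhibitor of metalloproteases, had 2.21 to 5.93 CPM (median 3.61) in control and 14.5 to 80.6 CPM (median 31.8) in nintedanib lungs (3.34 ± 0.39, adjusted p = 2.4e-09), and Mmp19 rose by 2.89. Of 20 activated fibroblast genes 12 rose and 1, the contractile gene Tagln, fell (-0.54), and for 8 of them the groups did not overlap. Cilp, a matrix protein of cartilage and fibrotic tissue, rose by 3.30. Acta2, smooth muscle actin, had 122 to 180 CPM (median 159) in control and 119 to 405 CPM (median 172) in nintedanib lungs, ranges that overlapped (0.27 ± 0.19, adjusted p = 0.23). Postn, periostin, had 289 to 354 CPM (median 330.1) and 240.5 to 440.4 CPM (median 344), also overlapping (0.01 ± 0.10, adjusted p = 0.92). In libraries under 1 CPM of Adipoq, 5 processing genes, 7 proteases and inhibitors and 5 activated fibroblast genes rose, and 1 protease gene fell. These shares lay near or somewhat above the 21.6% of all genes called in either direction in that fit.

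**Figure D2:**
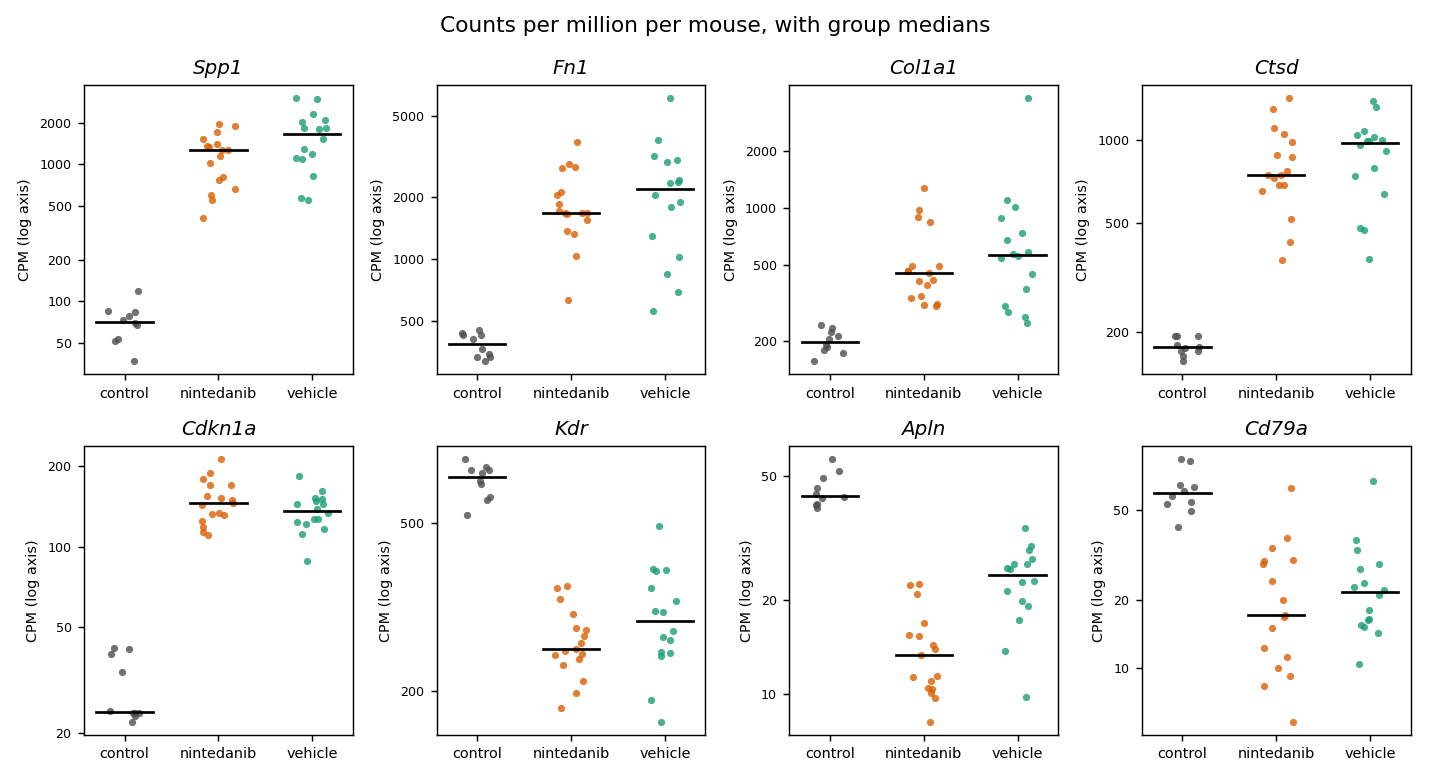
CPM per mouse on log axes for 8 genes in control, nintedanib and vehicle lungs, with 1 point per mouse and a bar at each group's median. Spp1, Fn1, Col1a1, Ctsd and Cdkn1a lie above all controls and Kdr and Apln below all controls in 17 of 17 nintedanib mice; Cd79a lies below all controls in 16 of 17.

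Signals of the TGF-beta family moved in both directions. TGF-beta ligands are held in the matrix in latent form and released by integrins, and BMPs are related ligands with receptors and antagonists of their own. Of 22 TGF-beta genes 14 rose and 5 fell, without overlap of the groups for 6 of the rises and all 5 falls. The activin chain Inhba (1.84), the latent TGF-beta binding protein Ltbp2 (1.34) and the activating integrin chain Itgb6 (1.27) were among the leading rises. Inhba was at 1.94 and not called without the Adipoq libraries (adjusted p = 0.14). Tgfb1, the ligand, had 65.5 to 82.7 CPM (median 71.3) in control and 59.6 to 96.1 CPM (median 75.2) in nintedanib lungs (0.09 ± 0.08, adjusted p = 0.32). The falls were those of the endothelial receptors Eng (-0.89) and Acvrl1 (-0.82), the co-receptor Tgfbr3 (-0.79), Ltbp4 (-0.68) and the inhibitory Smad7 (-0.56). Of 20 BMP genes 7 rose and 8 fell, against 28.1% higher and 25.1% lower among all tested genes. The antagonists Grem1, Nog (1.5) and Fst (1.04) rose. Bmp6, a BMP of lung capillaries, had 259 to 289 CPM (median 277) in control and 75.5 to 171 CPM (median 116) in nintedanib lungs without overlap (-1.19 ± 0.21, adjusted p = 7.1e-06). Without the Adipoq libraries 5 TGF-beta genes rose and 5 fell, and 1 BMP gene rose and 7 fell.

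Genes of macrophages recruited to fibrotic lung rose, and so did every lysosomal gene on the list. Of 26 genes marking profibrotic macrophages that derive from monocytes, 22 rose and none fell, with a median of 1.52 and no overlap of the groups for 15. Gpnmb had 15 to 31 CPM (median 23.4) in control and 89.4 to 942 CPM (median 395) in nintedanib lungs, and Trem2 had 3.48 to 6.29 CPM (median 5.22) and 30 to 98.8 CPM (median 65.9). The 4 not called were the monocyte receptors Ccr2 and Cx3cr1, the monocyte surface gene Ly6c2 and the ligand gene Pdgfa. Of 19 genes of resident alveolar macrophages 8 rose and 6 fell. Among them Chil3, a chitinase-like protein, rose by 1.97 and the integrin Itgax by 1.99, while Fabp1, a fatty acid binding protein, fell and had 2.55 to 5.35 CPM (median 3.45) in control and 0.0762 to 1.17 CPM (median 0.375) in nintedanib lungs without overlap (-2.71 ± 0.28, adjusted p = 1.8e-10). With the Adipoq libraries left out, 17 recruited macrophage genes rose and none fell, and 7 resident macrophage genes rose and 3 fell.

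Of 30 lysosome genes 30 rose, with a median of 0.86, and for 21 the groups did not overlap. The mean log2 CPM of the list was 6.95 to 7.11 in control and 7.39 to 8.42 in nintedanib lungs. Cathepsin D, Ctsd (chromosome 7, 142375911 to 142388038), a protease of lysosomes, had 157 to 194 CPM (median 177) in control and 368 to 1424 CPM (median 748) in nintedanib lungs (2.21 ± 0.19, adjusted p = 1.9e-12). Cathepsin K, Ctsk, rose by 2.89, the proton pump subunit Atp6v0d2 by 2.48 and cathepsin S, Ctss, by 2.45. Once the Adipoq libraries were removed, 29 of the 30 were called higher, and 30 of 30 with the mean levels of fat and airway genes as covariates. The letters TCACGTG, a form of the E-box read by TFEB and related factors, were searched on both strands of RefSeq promoters (250 bases before to 50 after a start). The motif was chosen after the values were seen. Promoters in the table were matched for 21 of the 30 genes, and 8 of their 24 promoters (33.3%) held the letters, against 3.8% of all 32851 promoters. The promoter of Ctsd (GRCm38.p6, chr7:142387778-142388077, minus strand), which holds 3 matches over both strands, 2 of them overlapping, is shown with the matches in capitals.
Ctsd: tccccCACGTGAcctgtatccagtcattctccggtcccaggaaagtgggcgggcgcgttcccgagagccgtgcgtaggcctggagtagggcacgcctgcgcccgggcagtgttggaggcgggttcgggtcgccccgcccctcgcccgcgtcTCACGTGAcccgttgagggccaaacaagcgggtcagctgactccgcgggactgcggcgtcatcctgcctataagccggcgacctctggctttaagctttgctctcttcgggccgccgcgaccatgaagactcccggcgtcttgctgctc

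Complement, acute-phase and cytokine genes rose with the macrophage genes. Of 25 acute-phase and complement genes 19 rose and 1, Orm3, fell (-0.71), with a median of 1.02. Lipocalin 2, Lcn2, which binds bacterial siderophores, had 48.5 to 72.3 CPM (median 60.5) in control and 185 to 859 CPM (median 463) in nintedanib lungs without overlap (2.94 ± 0.22, adjusted p = 4.7e-14). The complement receptor C3ar1 rose by 2.80 and the C1q chain C1qb by 2.49. Of 25 chemokines 18 rose and 3 fell, with Ccl8 (2.44), Ccl6 (2.44), Ccl2 (1.77) and Ccl9 (1.77) in front, which attract monocytes and other leukocytes, and Ccl5 (-0.86), Ccl4 (-0.76) and Cx3cl1 (-0.68) among the falls. Of 29 cytokine genes 17 rose and 3 fell. The epidermal growth factor receptor ligands Ereg (4.14) and Areg (2.44), the receptor Tnfrsf9 (2.42) and the interleukin 1 antagonist Il1rn (1.60) led, and Tslp (-0.63), Il6ra (-0.49) and Il11ra1 (-0.22) fell. Il1b, Il6 and Tnf were among the 9 not called. Single libraries decided 2 of these falls. Orm3 was at -0.40 without control replicate 1 (adjusted p = 0.19), and Ccl4 lost its call without any of 8 libraries (control replicates 1, 5 and 7 and nintedanib replicates 1, 3, 6, 9 and 11), with values of -0.72 to -0.65. In libraries under 1 CPM of Adipoq, 10 acute-phase genes, 5 chemokines and 11 cytokine genes rose and 0, 1 and 2 fell. The share of chemokines called was near the 21.6% of all genes called in that fit.

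Interferon and neutrophil genes showed mixed changes. Of 23 interferon-stimulated genes 11 rose and 3 fell, Gbp3 (-0.60), Gbp2 (-0.42) and Bst2 (-0.21), and for none did the groups separate. Bst2 was not called without nintedanib replicate 2 or 6. Cxcl10 (1.19), Oas2 (0.99) and Isg15 (0.83) were among the rises, and without the Adipoq libraries none rose and 4 fell. Of 13 neutrophil genes 4 rose, a share near the 28.1% of all tested genes, and 1, the granule gene Ngp, fell. Ngp had 0 to 7.06 CPM (median 1.41) in control and 0 to 4.15 CPM (median 0.166) in nintedanib lungs, overlapping ranges, and its log2 fold change of -2.66 was -4.02 without nintedanib replicate 15. Mmp8, neutrophil collagenase, rose by 1.24. Of the neutrophil list, 1 gene rose and none fell without the Adipoq libraries.

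In whole-lung RNA, markers of the transitional alveolar state rose, and most type 2 and type 1 genes were also higher. Some transitional markers, among them Cdkn1a, Lcn2 and Areg, also stand on other lists. Of 22 genes of the transitional state 20 rose and 1, Tm4sf1, fell (-0.41), with a median of 1.18 and separated groups for 16. Krt8, a keratin of that state, had 189 to 268 CPM (median 216) in control and 306 to 523 CPM (median 412) in nintedanib lungs without overlap (0.94 ± 0.10, adjusted p = 4.1e-10). Of 22 type 2 genes 19 rose and none fell (median 0.59), led by the protease Ctsh (1.58), surfactant protein D, Sftpd (1.17), the alarmin Il33 (1.14) and the fatty acid binding protein Fabp5 (0.99). Sftpc itself was higher on the log2 scale by 0.40 ± 0.13, adjusted p = 0.0084. Of 20 type 1 genes 14 rose and 2 fell, Hopx (-0.40) and Cav1 (-0.32), with Col4a3 (0.70), Krt7 (0.68), Pdpn (0.60) and Col4a4 (0.59) in front. Ager rose by 0.24 ± 0.10, adjusted p = 0.046, a call lost when any of 22 single libraries was left out, among them all 10 control libraries. Without the Adipoq libraries 14 transitional genes rose and 1 fell, 6 type 2 and 2 type 1 genes rose and none fell. For type 1 genes that share is under the 21.6% of all genes called in that fit.

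Targets of p53, the factor that responds to DNA breaks, were higher in large part. On the list of 30 p53 targets and senescence genes, 21 rose and 5 fell, with separated groups for 11 of the rises. Cdkn1a, which encodes the cell cycle inhibitor p21 (chromosome 17, 29090976 to 29100727), had 22.1 to 41.9 CPM (median 24) in control lungs and 111 to 213 CPM (median 146) in nintedanib lungs (2.32 ± 0.12, adjusted p = 7.7e-19). The lowest treated lung stood well above the highest control. Psrc1 (3.32), the stress cytokine Gdf15 (2.71) and Ckap2 (2.06) also led, and Igfbp3, Btg2 (-0.66), Plk2 (-0.64), Rrm2b (-0.35) and Sesn1 (-0.32) fell. With the Adipoq libraries left out, 16 rose and 5 fell. Of 22 genes of the unfolded protein and ATF4 response 15 rose and 2, Herpud1 (-0.32) and Atf4 (-0.31), fell, led by Sdf2l1 (1.23), a chaperone cofactor of the endoplasmic reticulum, Sesn2 (1.06) and Atf3 (1.01). Hspa5, the main chaperone of that compartment, had 449 to 588 CPM (median 505) in control and 626 to 1025 CPM (median 824) in nintedanib lungs (0.71 ± 0.08, adjusted p = 4.9e-10). In nintedanib lungs 8 genes of the list, Hspa5 included, were higher than in vehicle lungs and none was lower. That comparison called 7.31% of all tested genes. Against control, 11 rose and 1 fell without the Adipoq libraries.

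Lipid synthesis genes rose. Of 21 cholesterol and fatty acid synthesis genes 15 rose and 1, Elovl6, fell (median 0.55), and 13 rose and none fell without the Adipoq libraries. Scd1, stearoyl-CoA desaturase, had 984 to 4958 CPM (median 1477) in control and 3822 to 8679 CPM (median 6298) in nintedanib lungs (1.79 ± 0.19, adjusted p = 3.2e-10), and it also exceeded vehicle lungs, by 0.60 (adjusted p = 0.015). The groups overlapped only through control replicate 1, which also had the highest Adipoq of the controls. Cyp51, a demethylase of sterol synthesis, rose by 0.94 and Dhcr7, of its last step, by 0.74. Elovl6, a fatty acid elongase, was lower by the full set of libraries (-0.84 ± 0.33, adjusted p = 0.032), which turned to 0.43 (adjusted p = 0.023) without control replicate 1. In contrast, of 25 cytochrome P450, glutathione transferase and flavin monooxygenase genes, which oxidise and conjugate foreign compounds, none rose and 14 fell (median -0.57). Fmo1, a monooxygenase, had 482 to 630.5 CPM (median 558) in control and 139 to 294 CPM (median 210.2) in nintedanib lungs without overlap (-1.39 ± 0.18, adjusted p = 1.8e-08). Once the Adipoq libraries were removed, 2 of these genes were called lower, a share under the 21.6% of all genes called in that fit.

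Genes of dividing cells were higher in nintedanib lungs than in control lungs. Of 35 cell cycle genes 31 rose and none fell, with a median of 1.14. Mki67, a marker of dividing cells, had 9.61 to 18.1 CPM (median 13.9) in control and 15.6 to 64.2 CPM (median 29.8) in nintedanib lungs, with 15 of 17 treated mice above all controls (1.38 ± 0.29, adjusted p = 0.00013). Cyclin B1, Ccnb1, rose by 2.13, the kinetochore protein Cenpf by 1.87, the spindle checkpoint kinase Ttk by 1.78 and the cytokinesis protein Prc1 by 1.77. In libraries under 1 CPM of Adipoq, the median was 1.05 and edgeR called none, with 9 higher and 0 lower at an unadjusted p under 0.05 and 2 control libraries left, and with the fat and airway covariates 21 were called higher. Vehicle lungs had a list median of 1.66 against the same controls. The direct comparison called 9 of the 35 genes lower under nintedanib and none higher, where 7.31% of all tested genes were called. Mki67 itself had a log2 difference of -0.64 (adjusted p = 0.085). RefSeq promoters were searched on both strands for TTTGAA, the core of the element called CHR, and CCAAT, the NF-Y box, which recur in genes of mitosis. TTTGAA was in 17 of 30 promoters of the 29 genes matched (56.7%) against 17.9% of all promoters, and CCAAT in 25 of 30 (83.3%) against 37.4%. A match is a run of letters and was not tested as a binding site. The promoters of Cenpf (GRCm38.p6, chr1:189688037-189688336, minus strand) and Ttk (chr9:83834439-83834738, plus strand) are shown because both genes led the list and hold both motifs, given in capitals on whichever strand they lie.
Cenpf: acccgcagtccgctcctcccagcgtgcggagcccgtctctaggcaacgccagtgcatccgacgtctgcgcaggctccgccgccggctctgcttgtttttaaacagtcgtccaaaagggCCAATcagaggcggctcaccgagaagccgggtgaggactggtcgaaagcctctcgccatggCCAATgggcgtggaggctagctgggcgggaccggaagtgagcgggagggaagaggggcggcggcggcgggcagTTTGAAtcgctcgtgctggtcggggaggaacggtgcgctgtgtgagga
Ttk: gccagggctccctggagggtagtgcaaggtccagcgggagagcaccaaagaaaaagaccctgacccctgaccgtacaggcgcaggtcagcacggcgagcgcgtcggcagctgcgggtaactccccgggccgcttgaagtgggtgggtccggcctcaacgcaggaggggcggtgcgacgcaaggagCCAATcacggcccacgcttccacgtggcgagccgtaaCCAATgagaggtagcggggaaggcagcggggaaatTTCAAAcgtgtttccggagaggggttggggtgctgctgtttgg

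Most pan-endothelial and capillary genes fell. Of 24 pan-endothelial genes none rose and 21 fell, with a median of -0.72 and separated groups for 15, and 21 also fell without the Adipoq libraries. The mean log2 CPM of the list was 7.92 to 8.35 in control and 7.11 to 7.66 in nintedanib lungs. Kdr, VEGF receptor 2 and a target of nintedanib (chromosome 5, 75932827 to 75978458), had 524 to 710 CPM (median 644) in control lungs and 183 to 355 CPM (median 252) in nintedanib lungs (-1.26 ± 0.11, adjusted p = 5.6e-12). All treated lungs lay below all controls. Egfl7 (-1.11), a secreted endothelial factor, Clec14a (-1.06), a surface lectin, and Ramp2 (-1.03), a co-receptor for adrenomedullin, fell likewise, and Nos3, Sox17 and Vwf were not called. Of 18 general capillary genes 12 fell and 2 rose, Lpl (0.76) and Sgk1 (0.63). Aplnr, the apelin receptor, had 56.4 to 82 CPM (median 65.6) in control and 11.9 to 41 CPM (median 20.6) in nintedanib lungs (-1.57 ± 0.13, adjusted p = 6.2e-13), and Cd300lg (-1.52), Glp1r (-1.43) and Plvap (-1.24) fell too. Of 15 genes of aerocytes, the capillary cells specialised for gas exchange, 11 fell and 2 rose, Sirpa (0.90) and Igfbp7 (0.54). Ednrb, an endothelin receptor, had 114 to 149.9 CPM (median 122) in control and 16.4 to 68.3 CPM (median 37.1) in nintedanib lungs (-1.72 ± 0.26, adjusted p = 5.2e-07), and Fibin (-1.46) and Chst1 (-1.17) fell. Without the Adipoq libraries 9 general capillary genes fell and 2 rose, and 9 aerocyte genes fell and 1 rose.

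Receptors that nintedanib inhibits fell at the RNA level more often than they rose. Of 14 such kinase genes 8 fell and 2, Src (0.31) and Csf1r (0.19), rose, with a median of -0.42. In vehicle lungs the median against the same controls was -0.16. The direct comparison called 4 of the 14 lower under nintedanib and 1, Pdgfra, higher, against 7.31% of all tested genes called. Kdr and Flt1 were not called in it. Flt1, VEGF receptor 1, had 282 to 424 CPM (median 322) in control and 142 to 267 CPM (median 204) in nintedanib lungs (-0.73 ± 0.10, adjusted p = 3.4e-08), and Fgfr4 fell by 1.09 on the log2 scale, both without overlap. Flt4, VEGF receptor 3 of lymphatic and capillary endothelium, had 61.7 to 90.8 CPM (median 73.8) in control, 34.1 to 68.9 CPM (median 48.2) in nintedanib and 44.2 to 85.4 CPM (median 71.2) in vehicle lungs. It fell against control (-0.57 ± 0.09, adjusted p = 1e-06) and against vehicle (-0.47 ± 0.08, adjusted p = 0.00035), and 16 of 17 treated mice lay below the lowest control. The log2 difference from control was -0.41 ± 0.13, adjusted p = 0.0074 for Pdgfrb, of pericytes and fibroblasts. For Pdgfra it was -0.22 ± 0.12, adjusted p = 0.13, and for Fgfr1 it was 0.08 ± 0.10, adjusted p = 0.52. Pdgfra was higher than in vehicle lungs (0.43, adjusted p = 0.012), whose log2 difference from control was -0.65. Of 15 ligand genes 3 rose and 5 fell, against 28.1% higher and 25.1% lower among all tested genes. Pdgfc (1.80), Pgf (0.56) and Fgf2 (0.42) rose, Vegfd (-0.50), Fgf7 (-0.50), Pdgfd (-0.43), Pdgfb (-0.39) and Fgf18 (-0.28) fell, and Vegfa was not called. Csf1r lost its call without nintedanib replicate 12 or any control but replicate 1, with values of 0.15 to 0.17. Fgf18 lost its call without any of 11 libraries (control replicates 1 and 9 and nintedanib replicates 4, 6, 7, 8, 9, 11, 13, 15 and 16), with values of -0.28 to -0.25. With the Adipoq libraries left out, 5 kinase genes fell and none rose, and 1 ligand gene rose and 2 fell.

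Genes that respond to VEGF or mark sprouting tip cells were lower beyond the fall seen in vehicle lungs. Of 25 such genes 13 fell and 4 rose, Col15a1, Pgf, Rcan1 (0.50) and Hspg2 (0.32), with a median of -0.43, and in vehicle lungs the median against the same controls was -0.10. The direct comparison called 11 of the 25 lower under nintedanib and 1, Lyve1, higher. Apln, the apelin ligand of tip cells (chromosome X, 48025146 to 48034853), had 39.5 to 56.9 CPM (median 43.4) in control, 8.16 to 22.6 CPM (median 13.4) in nintedanib and 9.82 to 34.2 CPM (median 24.1) in vehicle lungs. Treated lungs lay below all controls (-1.70 ± 0.14, adjusted p = 9.5e-13) and below vehicle lungs on average (-0.72 ± 0.13, adjusted p = 0.00079), with overlap between the injured groups. The call of Hspg2 was lost without control replicate 3, 6 or 7, at 0.25 to 0.26. Aplnr differed from vehicle by -0.84 ± 0.12, adjusted p = 1.5e-05. Once the Adipoq libraries were removed, 12 of the 25 fell and none rose. Of the 24 pan-endothelial genes, 2 were lower under nintedanib than under vehicle, Emcn (-0.31) and Ecscr (-0.25), a share near the 7.31% of all tested genes.

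Lymphatic genes showed mixed changes, and alveolar fibroblast and pericyte genes fell more often than they rose. Of 9 lymphatic genes Mmrn1 (0.61), Reln (0.59) and Pdpn rose and Flt4 fell, while Prox1, the master transcription factor of lymphatic identity, had 2.71 to 4.3 CPM (median 3.21) in control, 2.12 to 7.68 CPM (median 3.84) in nintedanib and 4.08 to 16.1 CPM (median 8.8) in vehicle lungs. Prox1 was not called against control (0.34 ± 0.22, adjusted p = 0.19) and was lower than in vehicle lungs (-1.08 ± 0.19, adjusted p = 0.00042). The shares of lymphatic genes that rose or fell against control lay near or under those of all tested genes (28.1% and 25.1%). Against vehicle lungs 4 of the 9 were lower and 1 higher, with a median of -0.43, where 7.31% of all tested genes were called. Of 15 pericyte genes 8 fell and 2, Steap4 (1.06) and Lamc3 (0.76), rose, with the guanylate cyclase chains Gucy1a1 (-0.67) and Gucy1b1 (-0.70) among the falls. Of 17 alveolar fibroblast genes 11 fell and 2 rose, Plin2 (0.93) and Gpc3 (0.40), the latter not called without control replicate 6. Inmt, a methyltransferase abundant in these cells, had 2297 to 3179 CPM (median 2731) in control and 454 to 1749 CPM (median 1042) in nintedanib lungs without overlap (-1.39 ± 0.26, adjusted p = 1.9e-05), and the amino acid transporter Slc7a10 had a log2 fold change of -1.34. Of 16 adventitial fibroblast genes 8 rose and 3 fell, Pi16 (-0.60), Gsn (-0.59) and Dpp4 (-0.23), and of 14 smooth muscle genes 5 fell and none rose, against 25.1% lower among all tested genes. In libraries under 1 CPM of Adipoq, 1 lymphatic gene rose and 1 fell, 6 pericyte genes fell and 1 rose, 4 alveolar fibroblast genes fell and 1 rose, 1 adventitial gene rose and 1 smooth muscle gene fell. Of 12 mesothelial genes Msln (1.43) and Krt19 (0.60) rose and none fell, and 1 rose without the Adipoq libraries. The share that rose was under the 28.1% of all tested genes.

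Immediate early genes, which cells switch on within minutes of a stimulus, were mostly lower. Of 23 such genes 15 fell and 5 rose, with a median of -0.61, and none had separated groups. Egr1 had 69.9 to 464 CPM (median 151) in control and 15.9 to 181 CPM (median 36.4) in nintedanib lungs, with 15 of 17 treated mice below the lowest control (-1.97 ± 0.32, adjusted p = 1.6e-06). Nr4a1 had 69.7 to 518 CPM (median 134) and 26.1 to 106 CPM (median 44.3) (-2.02 ± 0.30, adjusted p = 4.6e-07), Ier2 a log2 fold change of -1.40 and Klf2, a flow-responsive factor of endothelium, of -1.11. The 5 that rose were Socs3 (1.01), Atf3, Nr4a3 (0.80), Hspa1b (0.78) and Dnajb1 (0.39), and Hspa1b shares sequence with Hspa1a. Of 20 genes of ERK output and feedback 7 rose and 9 fell. Etv4, a transcription factor downstream of FGF signals, rose by 2.51, and Egr3 (-1.10) fell. Without the Adipoq libraries 12 immediate early genes fell and 3 rose, and 7 ERK genes fell and 4 rose.

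B cell and cytotoxic lymphocyte markers fell. Of 18 B cell genes 17 fell and none rose, with a median of -1.25, and 12 fell without the Adipoq libraries. Cd79a, a chain of the B cell receptor complex (chromosome 7, 24897381 to 24902197), had 42.2 to 84.7 CPM (median 59.7) in control lungs and 5.78 to 63.1 CPM (median 17.2) in nintedanib lungs (-1.48 ± 0.27, adjusted p = 1.1e-05). A single treated lung reached into the control range. The B lineage factor Pax5 (-1.69) and the kinase Blk (-1.45) fell too, and Cd22 was not called. Of 24 T and NK cell genes 12 fell and 1, Il7r (0.48), rose. Il7r lost its call without control replicate 2, 3, 6 or 9, at 0.40 to 0.45. The falls were led by genes of killer cells, Gzma (14 to 28.4 CPM (median 21.1) in control and 1.85 to 9.99 CPM (median 5.83) in nintedanib lungs, without overlap), the NK receptors Ncr1 (-1.81) and Klrb1c (-1.64) and perforin, Prf1 (-1.53), while the T cell genes Cd3d, Cd3e, Cd3g and Cd4 were not called. Of 8 plasma cell genes 4 rose and 2 fell, and Jchain, the joining chain of secreted antibodies, had 8.5 to 48.8 CPM (median 26.5) in control and 4.16 to 301 CPM (median 104) in nintedanib lungs, with 12 of 17 treated mice above all controls and 1 below (2.14 ± 0.62, adjusted p = 0.0038). The 2 that fell were Prdm1 (-1.10) and Mzb1 (-0.75), the latter not called without control replicate 3 or 6. Jchain kept its size and lost its call without the Adipoq libraries (2.23, adjusted p = 0.25), where 2 plasma cell genes rose and 1 fell.

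Dendritic cell genes moved in both directions against control, and mast cell and red cell genes fell more often than they rose. Of 24 dendritic cell and antigen presentation genes 10 rose and 7 fell against control, led by Mreg (1.27) and Ccl17 (0.99) on 1 side and the plasmacytoid cell marker Siglech (-1.25) and H2-Oa (-1.26) on the other, and the direct comparison called 13 lower under nintedanib than under vehicle and none higher. Fscn1, of mature dendritic cells, had 13.1 to 19.7 CPM (median 15.9) in control, 14.7 to 62 CPM (median 23.6) in nintedanib and 22 to 131 CPM (median 52.8) in vehicle lungs. It rose against control (0.86 ± 0.25, adjusted p = 0.0041) and was lower than in vehicle lungs (-1.01 ± 0.21, adjusted p = 0.0029). The call against control was lost without the Adipoq libraries (0.82, adjusted p = 0.32) and with the fat and airway covariates (0.72, adjusted p = 0.067). Of 8 mast cell and basophil genes 4 fell and 1, the histamine-forming enzyme Hdc, rose (0.91). Against vehicle lungs 3 of the 8 were higher and none was lower. Ms4a2, a chain of the IgE receptor, fell by 2.22 on the log2 scale at levels of at most 1.66 CPM. Of 15 red cell and platelet genes 11 fell and none rose, among them the platelet integrin Itga2b (-0.87), and 8 were higher under nintedanib than under vehicle and 1, Gng11, lower (-0.26), against 7.31% of all tested genes called in either direction. Haemoglobin genes of this list have near-identical copies and their values are uncertain. With the Adipoq libraries left out, 2 dendritic genes rose and 4 fell, 3 mast cell genes fell and 1 rose, 8 T and NK genes fell and 6 red cell and platelet genes fell.

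Genes of fat varied between mice of a group, and the libraries that held them were unequal in number between the groups. Of 15 adipose genes 11 fell and 1, Tmem120b (0.21), rose, a call lost when any of 18 single libraries was left out (9 controls and 9 nintedanib libraries), with values of 0.13 to 0.20. Adipoq (chromosome 16, 23146536 to 23158028) had 0 to 119.9 CPM (median 12) in control lungs and 0 to 57.4 CPM (median 0.0625) in nintedanib lungs (-2.25 ± 0.81, adjusted p = 0.017). The highest values were those of control replicate 1 and nintedanib replicate 7. Without control replicate 1, Adipoq was at -1.21 on the log2 scale (adjusted p = 0.21), Car3 at -1.35 (0.21), Plin1 at -1.36 (0.12), Pck1 at -0.92 (0.42), Cidea at -0.86 (0.062), Thrsp at -0.72 (0.25) and Fabp4 at -0.46 (0.32), against -2.39, -2.74, -3.19, -4.22, -2.83 and -1.96 for the last 6 with all libraries. Without nintedanib replicate 7 the values of Adipoq, Car3, Plin1, Pck1 and Cyp2e1 were -4.22, -4.47, -4.78, -6.51 and -3.38, with -1.95 for Cyp2e1 with all libraries. The size of the fall in fat genes thus depends on these 2 libraries, and those 7 genes lost their call when control replicate 1 alone was left out. Thrsp was still called lower when all Adipoq libraries, control replicate 1 among them, were left out. The summed CPM of the list was 242 to 4208 in control, 213 to 1649 in nintedanib and 174 to 266 in vehicle lungs. Once the Adipoq libraries were removed, 10 members were tested, of which 1 rose and 1 fell.

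**Figure D3:**
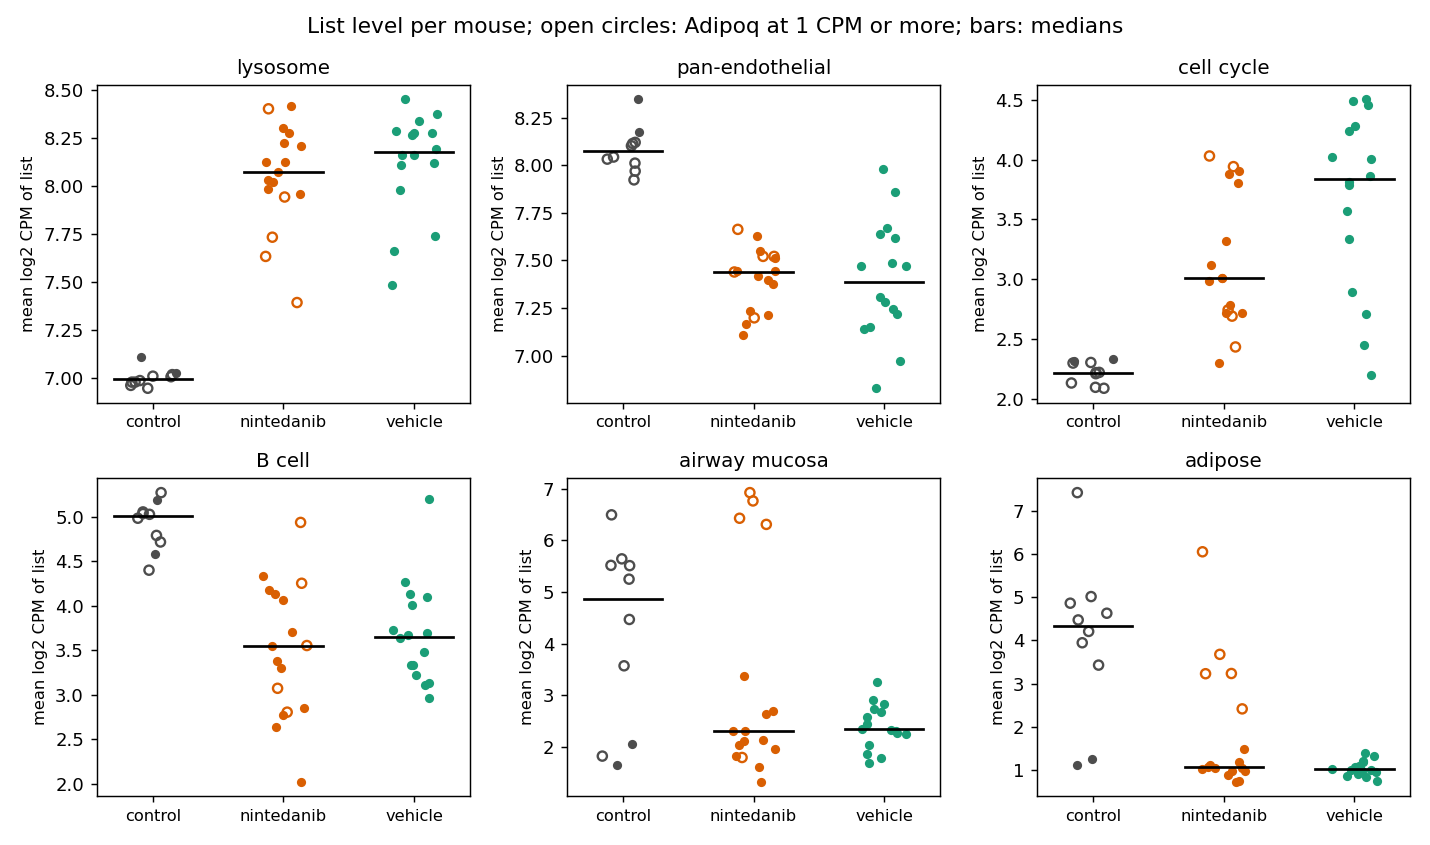
Mean log2 CPM of the tested members of 6 gene lists per mouse in control, nintedanib and vehicle lungs, with bars at the medians and open circles for libraries with Adipoq at 1 CPM or more. The lysosome and pan-endothelial lists separate control from nintedanib mice. On the adipose list every open circle lies above every filled one, but Adipoq, which sets the open circles, is itself on that list.

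Airway genes were highest in some of the same libraries. Of 12 large-airway mucosa genes 1 rose, Msln, which mesothelium also expresses, and none fell. Bpifa1, a secreted protein of large airways, had 1.12 to 1187 CPM (median 144) in control and 0 to 2362 CPM (median 1.47) in nintedanib lungs (0.19 ± 1.11, adjusted p = 0.9), and in vehicle lungs 0.267 to 20.2 CPM (median 1.99). The mean log2 CPM of the list was 1.66 to 6.5 in control and 1.33 to 6.93 in nintedanib lungs, and 13 of 17 treated mice lay inside the control range. Without Adipoq at 1 CPM, the highest library of the list was at 2.06 in control and 3.37 in nintedanib lungs. Of 19 club and secretory cell genes 8 fell and 2 rose, Retnla (2.7) and Hp (0.25), of 19 ciliated cell genes 5 fell and none rose, and of 8 basal cell genes Krt14 (1.88) and Krt17 (2.36) rose. Hp lost its call without control replicate 2, 5 or 7, at 0.19 to 0.21. Krt14 lost its call without nintedanib replicate 8, and Krt17 without any of 13 single libraries (8 controls and nintedanib replicates 1, 3, 7, 8 and 14), with values of 1.92 to 2.46. In libraries under 1 CPM of Adipoq, edgeR called no ciliated or basal gene, and 0 of either list at an unadjusted p under 0.05, and 1 club cell gene rose. Of 14 genes of cardiac muscle, which sheathes pulmonary veins in mice, 12 fell and none rose (median -1.62), and 7 fell without the Adipoq libraries. Myl3, a ventricular and slow muscle myosin chain, had 0.939 to 4.13 CPM (median 1.89) in control and 0 to 1.63 CPM (median 0.193) in nintedanib lungs (-2.56 ± 0.52, adjusted p = 5.7e-05). Of 7 skeletal muscle genes Ckm (-1.97) and Mylpf (-0.62) fell, and 1 fell without the Adipoq libraries. The shares of ciliated and skeletal muscle genes that fell, and of basal genes that rose, were near the 25.1% and 28.1% of all tested genes. With the fat and airway covariates 7 club cell genes were called lower and 2 higher, and no ciliated gene was called. In that fit 12 cardiac and 2 skeletal muscle genes fell and 1 basal gene rose. The airway covariate was the mean level of the airway mucosa list, so that list cannot be judged by it. The part of fat and airway content in these changes was not tested beyond these fits.

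The leading falls from vehicle to nintedanib lungs included immediate early and kinase feedback genes. Since both injured groups share the control libraries, this was tested directly. That comparison called 1084 of 14836 genes (7.31%), 476 higher and 608 lower under nintedanib. It called 640 when only these 2 groups were fitted and 525 without the Adipoq libraries. Of 23 immediate early genes, Egr1, Nr4a1 and Ier2 (-0.43) were lower than in vehicle lungs, and the heat shock genes Hspa1a (0.63) and Hspa1b (0.69), near-identical copies, were higher. Among genes called in both comparisons whose average log2 CPM reached 2, the largest falls against vehicle were those of Apold1, an endothelial immediate early gene (-1.17 ± 0.17, adjusted p = 2.8e-05), Nos2, inducible nitric oxide synthase (-1.04 ± 0.18, adjusted p = 0.00047), Egr1 (-1.03), Spry4, a feedback inhibitor of receptor tyrosine kinases (-1.01 ± 0.14, adjusted p = 7.9e-06), and Egr3 (-1.01). Fscn1, Nr4a1 (-0.94) and Stab2, a scavenger receptor of endothelium (-0.85), followed.

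Their distances from control differed in kind. Spry4 had 21.1 to 35 CPM (median 26.9) in control, 11.5 to 33.2 CPM (median 15.8) in nintedanib and 21.4 to 56.2 CPM (median 36.4) in vehicle lungs, so that treated lungs were below control (-0.63 ± 0.16, adjusted p = 0.00073) where the vehicle value was 0.38. Apold1 showed the same arrangement, with -0.60 in nintedanib and 0.57 in vehicle lungs, and so did Plxnd1, a semaphorin receptor of endothelium, with -0.38 (adjusted p = 2.6e-06) and 0.08. Nos2 (0.97 and 2.01) and Stab2 (0.85 and 1.70) stood above control in both groups. Without the Adipoq libraries Nos2 was at 0.95 (adjusted p = 0.14), Stab2 at 0.36 (adjusted p = 0.62) and Apold1 at -0.53 (adjusted p = 0.25) against control, none of them called. Ptx3, an acute-phase pattern receptor (chromosome 3, 66219910 to 66225805), had 0.534 to 2.4 CPM (median 1.34) in control, 0.257 to 5.62 CPM (median 1.06) in nintedanib and 2.75 to 13.6 CPM (median 8.45) in vehicle lungs. It was not called against control (0.16 ± 0.35, adjusted p = 0.73), while treated and vehicle lungs differed by -2.43 ± 0.30, adjusted p = 1.1e-06. The 8 genes with the largest rises over vehicle lungs under the same conditions were those of fat and airway (Pck1, Car3, Adipoq, Plin1, Plin4, Cyp2e1, Lypd2 and Adh7), and no vehicle library held Adipoq at 1 CPM.

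**Figure D4:**
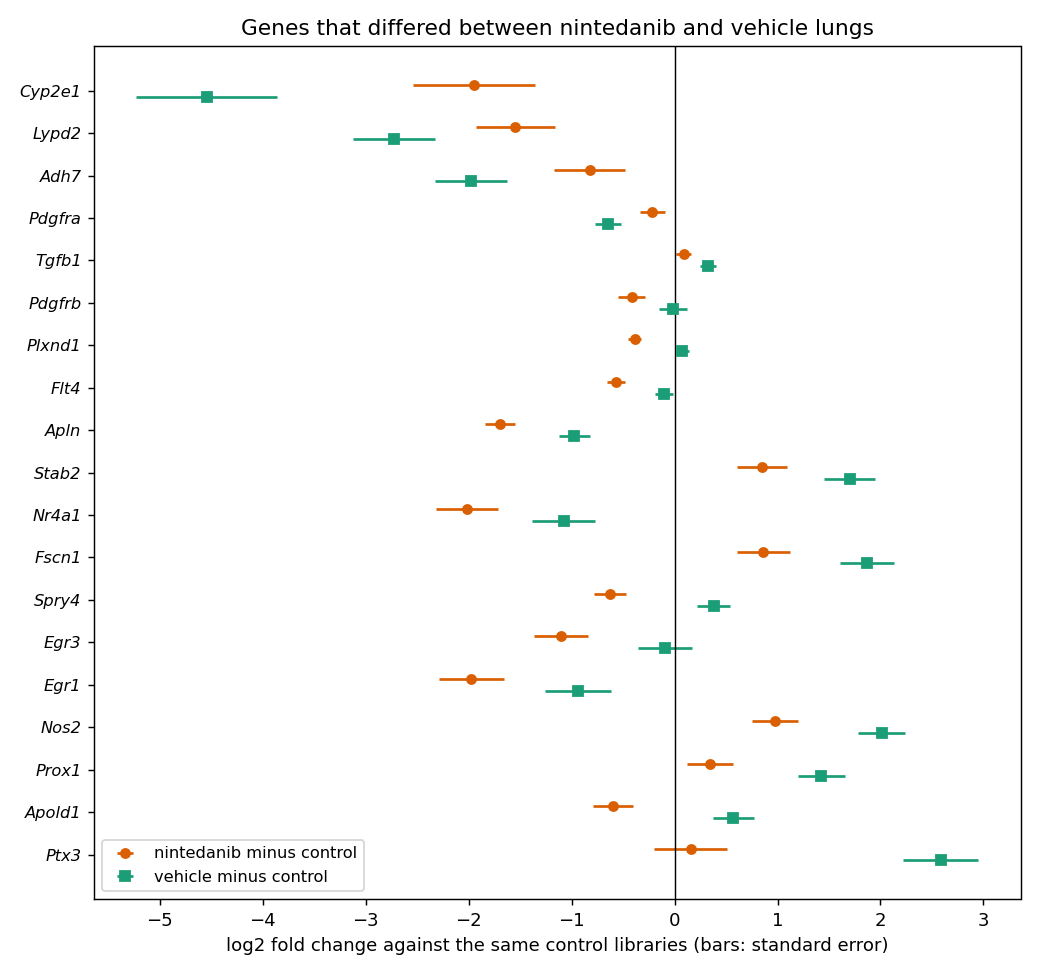
Log2 fold changes with standard errors of nintedanib lungs (circles) and vehicle lungs (squares) against the same 10 control libraries, for 19 named genes that differed between the injured groups (adipocyte genes at or near 0 in vehicle lungs are left out). Ptx3 lies near 0 under nintedanib and at 2.59 under vehicle, and Spry4 and Apold1 lie on opposite sides of 0.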

How the data were processed

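Lung RNA (polyA, inferior lobe) was sequenced from 43 mice, taken as 1 mouse per library. The authors deposited a table of raw gene counts, made with STAR 2.7.0f, R 3.6.0 and GRCm38, per the submitters' processing notes. How genes were counted (tool, strand setting, annotation) is not given in the sources used here. Library preparation keeps the strand, per the labels' protocols. Of 21938 genes, 14836 passed filterByExpr (minimum count 10, minimum total 15). Counts were fitted with edgeR 4.0.16 (TMM factors, robust quasi-likelihood, 1 coefficient per group over all 43 libraries) and adjusted by Benjamini-Hochberg at 0.05. CPM use TMM-scaled library sizes, and a log2 fold change carries its standard error after ±. DESeq2 1.42.0, RLE factors, library totals, no filter, only the compared groups, the largest number series, no Adipoq libraries, fat and airway covariates and leaving out each library were alternatives. The fit was tested on simulated data. No pair of libraries agreed within sampling noise.

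The members and gene lists were chosen with earlier results of these data known. Named genes were the 12 largest rises and falls at an average log2 CPM of at least 2 (among all called genes, and among those also called without the Adipoq libraries), up to 4 leading members per list, the 8 largest rises and falls against vehicle, and a set of 32 genes named in every case; others were named after their values were seen, and some genes the rule picks are not reported here. Most were chosen by size of change, so their values run larger than those of other genes. The 51 lists held 918 genes, of which 882 were tested. Promoters are from RefSeq. Genes with near-identical copies (Saa3, Oas2, Hba-a2 and Hspa1b among them) are uncertain. Totals of at least 13138281 counts limit counting error, and the number of mice limits precision.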

Additional observations from a re-analysis of the deposited data

Results flagged for a closer look

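For 22 of the 264 named genes examined, 1 control library stood apart from the other 9 (past Dixon's 95% limit). The measure was the gap to its nearest neighbour as a share of the range of log2 CPM. Chance does this for about 1 group in 20, and genes set apart by the same library are not separate events. Control replicate 1, the library with the most Adipoq, was highest for Elovl6 (0.83), Mlxipl (0.743), Cidea (0.717), Lpl (0.593), Plin2 (0.569), Thrsp (0.564), Scd1 (0.555), Steap4 (0.498), Fabp4 (0.493) and Orm3 (0.493), and lowest for Reln (0.529). Control replicate 2 was highest for the endothelial genes Lyve1 (0.638), Eng (0.625), Plvap (0.608) and Vwf (0.588), and for Mmp28 (0.559) and Il6ra (0.475). Control replicate 4 was lowest for Jchain (0.493) and Fibin (0.476), replicate 5 highest for Sox11 (0.533) and Sirpa (0.501), and replicate 6 lowest for Tnfrsf9 (0.534). Groups of more than 10 were not examined this way.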

How the results depend on the processing

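Leaving out the Adipoq libraries gave 3297 calls against control, 1800 higher and 1497 lower, and 525 against vehicle, 248 higher and 277 lower; with 2 control libraries left, groups without overlap numbered 2263 genes higher and 2003 lower. Fitting only the compared groups gave 640 calls against vehicle, 254 higher and 386 lower. Against control the other settings gave 6504 calls (fat and airway covariates) to 8211 (compared groups only), and leaving out 1 library 7627 to 8346, with 3532 to 4221 higher and 3562 to 4590 lower. In 11 of 27 such fits, 9 of them without a control, lower calls outnumbered higher ones. Elovl6 turned to 0.53 without the Adipoq libraries, 1.0 with covariates, 0.40 by DESeq2 and 0.43 without control replicate 1 (-0.98 to 0.43 over all fits without 1 library); Fabp4 turned to 1.39 without the Adipoq libraries and 0.85 with covariates, and Plin1 to 0.79 without those libraries. With covariates Cidea turned to 0.45 and Thrsp to 0.03. The fat covariate was the mean log2 CPM of the adipose list itself, so it takes up a fall of fat genes by construction. Values of fat genes in that fit therefore cannot show how stable their fall is. The cause of these turns was not tested. Of 235 called genes named, 145 of 232 tested kept their call without the Adipoq libraries, 201 with covariates and 231 by DESeq2, and 25 lost it in some fit without 1 library. No paired analysis was possible because the labels give no number that links mice across groups.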
